A study of Mus musculus with 6 samples.

Results

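The alpha-arrestin genes Arrdc1, Arrdc2, Arrdc3, Arrdc4 and Txnip were followed in the ischemic mouse retina with and without chronic intermittent hypoxia (CIH). They are 5 of the 32285 genes in the count table, taken by symbol, and all 5 passed the filter on low counts (10 or more counts summed over the 6 libraries), as did 20021 genes in all. The set was put together because of the levels these genes had in the 2 groups compared here. Differences of its members between the groups are therefore given as a description. Where it is said whether a member passed the call rule used for all genes, this describes its place in that fit and is not independent evidence of a difference.

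Alpha-arrestins are adaptor proteins with an arrestin fold. Most carry PPxY motifs, short stretches that bind the WW domains of Nedd4-family ubiquitin ligases, and so bring these ligases to membrane receptors and transporters that are then ubiquitinated, internalized and sorted through endosomes. Txnip also binds thioredoxin and restrains glucose uptake through glucose transporters, Arrdc4 shares the glucose transporter role, Arrdc3 acts on beta-adrenergic receptors and Arrdc1 drives budding of vesicles from the cell surface. In the retina, Txnip is known for its links to diabetes and to the energy supply of photoreceptors.

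To examine the ischemic retina under CIH, C57BL/6J wild-type mice of both groups were kept with their mothers in 75% O2 for 5 days from postnatal (PN) day 8, which closes capillaries of the central retina and is known as oxygen-induced retinopathy (OIR). From PN13 the OIR-Norm mice breathed room air with the gas flow and noise of the simulator, while OIR-CIH mice were given 266 oxygen cycles over 10 h of each day. Each 135 s cycle went from 20.95% O2 down to 5% O2 and back. Retinas of 3 OIR-CIH and 3 OIR-Norm eyes were collected at PN18 and sequenced as bulk poly(A) RNA. A retina without OIR was not analysed here, so the levels below compare 2 kinds of ischemic retina only.

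Library totals ran from 26289905 to 38010151 counts. Values are given as CPM, the reads of a gene divided by those of its library on the usual fixed scale, adjusted between libraries by the trimmed mean of M values (TMM), and errors are SD over 3 libraries. How many animals stand behind a library is not known, since Xist (298 to 1653 CPM) and the Y-linked genes Ddx3y, Eif2s3y, Kdm5d and Uty (57.3 to 184 CPM summed) were read in each of the 6 libraries. As the number of animals is not known, all p-values below measure the spread between these libraries, which may in part be technical. Rod marker genes summed to 40971 to 53879 CPM per library, as fits the labelled tissue. In bulk RNA, fewer cells of a type and less RNA per cell cannot be told apart.

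Arrdc3 (ENSMUSG00000074794, GRCm38, chr13:80883384-80896042, plus strand) is the family member linked to receptor endocytosis and to body fat. It stood at 357, 366 and 303 CPM in OIR-CIH libraries 1, 2 and 3 and at 155, 153 and 168 CPM in OIR-Norm libraries 1, 2 and 3. All 3 OIR-CIH libraries were well above all 3 OIR-Norm libraries, and OIR-CIH library 3 was the lowest of its group. The mean was 342 ± 34.4 CPM in OIR-CIH and 159 ± 8.52 CPM in OIR-Norm (SD, n = 3), a ratio of 2.15. The fitted log2 fold change was 1.11 (SE 0.09, 95% interval 0.92 to 1.30). It rests on 9104 to 11432 counts per OIR-CIH library and 4348 to 5362 per OIR-Norm library, so counting error is small beside the spread between libraries.

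**Figure D1:**
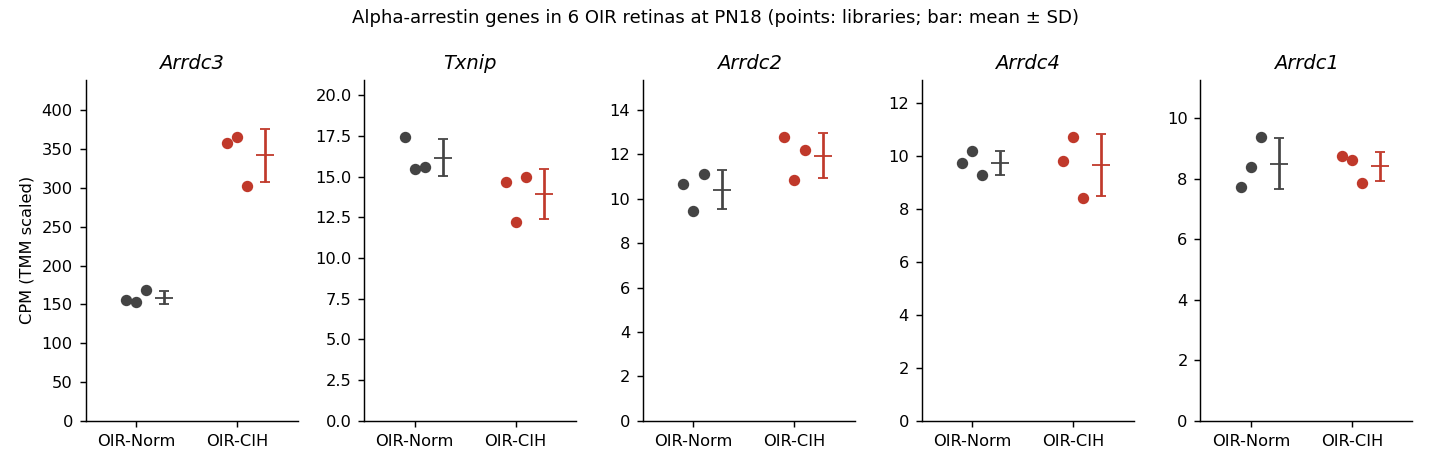
CPM of the 5 alpha-arrestin genes (y axis, from 0, with its own scale in each panel) in the 6 PN18 libraries, by group. Points are libraries and bars the mean with SD. The groups lie far apart for Arrdc3 (302.5 CPM or more against 168 CPM or less), narrowly apart for Txnip, and overlap for Arrdc2, Arrdc4 and Arrdc1.

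The difference of Arrdc3 was large for so abundant a gene. Of 2258 genes with a mean of at least 100 CPM, 17 had an absolute log2 fold change over 0.5, and the median absolute value was 0.09. Gfap, the intermediate filament gene of astrocytes and reactive Müller glia, was the only gene among these 2258 with a larger value, at -1.15. Arrdc3 also had the highest mean CPM of the 21 genes that passed the call rule as higher in OIR-CIH. A call needed an adjusted p below 0.05 (edgeR quasi-likelihood test, Benjamini-Hochberg) and an absolute log2 fold change over 0.5. Genes below 100 CPM are outside this ranking, and the paper lists Asprv1, Upk3b and Col8a2 with larger fold changes than Arrdc3. Arrdc3 was chosen on this comparison, so its rank is a description and no further evidence of a difference.

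Txnip (ENSMUSG00000038393, chr3:96557957-96561883, plus strand), the thioredoxin-interacting member, was read at far lower levels. It stood at 14.7, 12.2 and 15.0 CPM in OIR-CIH libraries 1 to 3 and at 17.5, 15.5 and 15.6 CPM in OIR-Norm libraries 1 to 3. The OIR-CIH values all lay below the OIR-Norm values, but the highest of the former and the lowest of the latter were close together. The mean was 14.0 ± 1.53 CPM against 16.2 ± 1.12 CPM (SD, n = 3), and the log2 fold change was -0.21 (SE 0.11, 95% interval -0.45 to 0.03). Without OIR-CIH library 2, the lowest for Txnip, the log2 fold change was -0.12.

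Arrdc2 (ENSMUSG00000002910, chr8:70835129-70839720, minus strand), a close relative of Arrdc3, stood at 12.8, 10.8 and 12.2 CPM in OIR-CIH and at 10.6, 9.44 and 11.1 CPM in OIR-Norm, in library order. OIR-CIH libraries 1 and 3 were above all OIR-Norm libraries, and OIR-CIH library 2 fell within their range. The means were 11.9 ± 1.01 and 10.4 ± 0.868 CPM (SD, n = 3), with a log2 fold change of 0.20 (SE 0.11, 95% interval -0.05 to 0.44).

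Arrdc4 (ENSMUSG00000042659, chr7:68736995-68749241, minus strand), which with Txnip is known as a glucose-responsive gene, stood at 9.81, 10.7 and 8.42 CPM in OIR-CIH and at 9.74, 10.2 and 9.30 CPM in OIR-Norm. The OIR-Norm values lay inside the range of the OIR-CIH values. The log2 fold change was -0.02 (SE 0.12, 95% interval -0.28 to 0.25).

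Arrdc1 (ENSMUSG00000026972, chr2:24925352-24935252, minus strand), the vesicle-budding member, stood at 8.75, 8.63 and 7.86 CPM in OIR-CIH and at 7.72, 8.38 and 9.39 CPM in OIR-Norm. Here the OIR-CIH values lay inside the OIR-Norm range, and the log2 fold change was -0.02 (SE 0.12, 95% interval -0.29 to 0.25). The sign of Arrdc1 turned without OIR-CIH library 3 or OIR-Norm library 3 (up to 0.06), and that of Arrdc4 without OIR-CIH library 3 or OIR-Norm library 2 (up to 0.08).

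Of the 5 members, 1 passed the call rule, Arrdc3, as higher, on the values for which the set was chosen. Over all genes tested, 63 were called, or 0.315%, with 0.105% called higher and 0.21% called lower. The groups did not overlap for 2 of the 5 members, Arrdc3 and Txnip, in opposite directions, while over all genes tested they did not overlap for 18.4% (9.12% higher, 9.26% lower). These background shares stand beside the members' counts only for scale, as the members were chosen on this comparison.

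**Figure D2:**
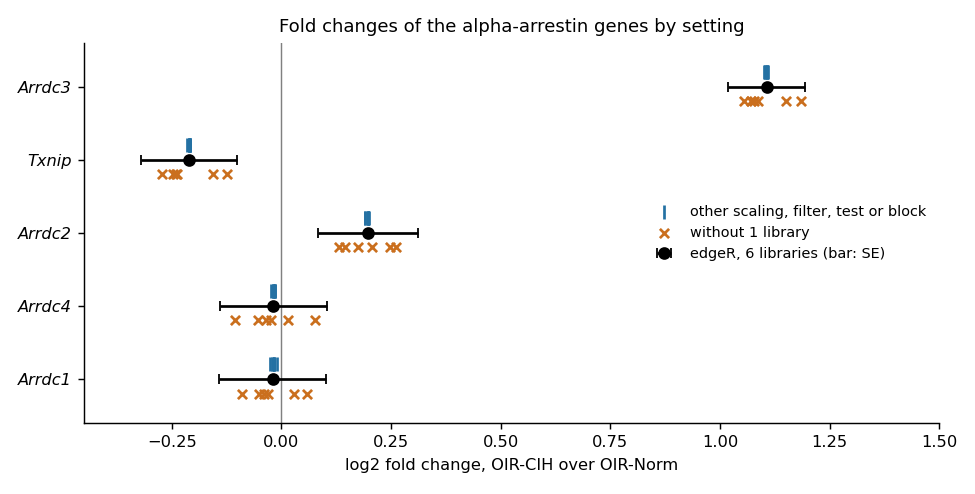
Log2 fold change of OIR-CIH over OIR-Norm (x axis) for each alpha-arrestin gene from the edgeR fit with its SE (circles and bars), under other scalings, filters, tests and the replicate block (blue ticks), and without each library in turn (orange crosses). Arrdc3 stays between 1.05 and 1.18, Txnip stays below 0 and Arrdc2 above 0, and the values of Arrdc1 and Arrdc4 fall on both sides of 0.

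Compared per kilobase of exon, so that levels can be set between genes, Arrdc3 was also the leading family member in each of the 6 libraries. It stood at 54.6 ± 5.49 CPM per kb in OIR-CIH and 25.3 ± 1.36 CPM per kb in OIR-Norm (SD, n = 3). Txnip came next in each library, at 3.91 to 5.59 CPM per kb over the 6 libraries. Arrdc2 (2.92 to 3.96) and Arrdc1 (3.08 to 3.74) overlapped and changed places from library to library, and Arrdc4 (2.08 to 2.66) was the lowest in each. Txnip and Arrdc2 also touched across libraries, although Txnip was the higher within each library. Of the 20009 tested genes with a length, 91.3% stood below Arrdc3 in OIR-Norm and 96.6% in OIR-CIH, against 46.6% to 60.3% for the other 4 members in either group.

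Arrdc3 also made up most of the reads of the family in both groups, in part because it has the longest exon total (6.27 kb). Its share of the reads of the 5 genes was 88.5 ± 1.09% in OIR-CIH (87.4% to 89.6%) and 78.0 ± 0.744% in OIR-Norm (77.3% to 78.8%). Per kilobase of exon, its share was lower, at 79.6 ± 1.81% in OIR-CIH and 64.1 ± 0.868% in OIR-Norm. The other 4 genes together stood at 44.0 ± 1.86 CPM in OIR-CIH and 44.8 ± 1.15 CPM in OIR-Norm (SD, n = 3), with overlapping ranges. The sum of the family was 386 ± 34.7 CPM against 204 ± 9.22 CPM.

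Ratios taken within a library do not depend on scaling. The log2 ratio of Arrdc3 to Txnip was 4.61, 4.91 and 4.33 in OIR-CIH and 3.15, 3.30 and 3.43 in OIR-Norm. The log2 ratio of Arrdc3 to Arrdc1 averaged 5.34 ± 0.07 in OIR-CIH and 4.23 ± 0.09 in OIR-Norm, the tightest spread among OIR-CIH libraries after that to Arrdc4 (5.15 ± 0.05 against 4.03 ± 0.14). For each of the other 4 members the lowest ratio in OIR-CIH exceeded the highest in OIR-Norm. This follows from the Arrdc3 values on which the set was chosen and is no further evidence of a difference.

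The 3 promoters shown here belong to the member that differed most between the groups (Arrdc3) and to the glucose-responsive members (Txnip and Arrdc4). Each is the 250 bases before the annotated start, 5′ to 3′ on the strand of the gene, from RefSeq (GRCm38.p6), in which all 5 members had an entry. Arrdc3 has 3 annotated starts, and the outermost is shown. Capitals mark matches, on either strand, to the motifs named after the sequences.
Arrdc3, chr13:80883134-80883383, plus strand: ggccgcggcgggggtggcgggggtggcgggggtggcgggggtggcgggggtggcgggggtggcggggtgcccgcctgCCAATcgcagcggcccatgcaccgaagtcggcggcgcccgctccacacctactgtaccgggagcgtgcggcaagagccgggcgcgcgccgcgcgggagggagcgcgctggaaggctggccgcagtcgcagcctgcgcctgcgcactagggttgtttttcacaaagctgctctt
Txnip, chr3:96557707-96557956, plus strand: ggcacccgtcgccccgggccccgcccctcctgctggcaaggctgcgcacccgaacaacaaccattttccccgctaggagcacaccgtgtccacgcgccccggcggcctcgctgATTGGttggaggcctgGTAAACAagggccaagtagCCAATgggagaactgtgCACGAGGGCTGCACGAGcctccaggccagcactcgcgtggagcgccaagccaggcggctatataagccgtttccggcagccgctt
Arrdc4, chr7:68749239-68749488, minus strand: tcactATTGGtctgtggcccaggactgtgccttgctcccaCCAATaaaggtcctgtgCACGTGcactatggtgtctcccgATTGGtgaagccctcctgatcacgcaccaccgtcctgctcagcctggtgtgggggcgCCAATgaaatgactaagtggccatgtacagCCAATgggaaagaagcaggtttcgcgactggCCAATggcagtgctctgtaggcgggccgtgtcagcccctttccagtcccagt

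The letters searched were those of the E-box (CACGTG), the carbohydrate response element (CACGNG, 5 bases of any kind, CACGNG), a FoxO motif (GTAAACA), the CCAAT box (CCAAT), the hypoxia response core (ACGTG), the glucocorticoid response element (AGAACA, 3 bases of any kind, TGTTCT) and the cAMP response element (TGACGTCA). The hypoxia response core lies within the E-box on both strands. The Arrdc3 window was the richest in G and C among those shown (76%, with 33 CpG) and held 1 CCAAT box, 173 to 169 bases before the start. Its start furthest into the gene had 1 hypoxia response core, 205 to 201 bases before it, and no other match.

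The Txnip window held a carbohydrate response element 85 to 69 bases before the start, the arrangement bound by the glucose-sensing factors Mlxip and Mlxipl with their partner Mlx. Of 32851 mouse promoter windows of this length, 0.0457% held that match. Txnip also held a FoxO motif 121 to 115 bases before the start (3.17% of windows) and 2 CCAAT boxes (33.8% of windows hold at least 1). The Arrdc4 window held an E-box 193 to 188 bases before the start (6.02% of windows), which is also its pair of hypoxia response core matches (16.6% of windows), and 6 CCAAT boxes. The Arrdc2 window held 3 CCAAT boxes and the Arrdc1 window none of the 7 motifs. No member's window held the glucocorticoid response element (0.00913% of windows) or the cAMP response element (1.55%). A match is a run of letters and not a measured binding site, and its absence says only that these letters are not in the window.

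**Figure D3:**
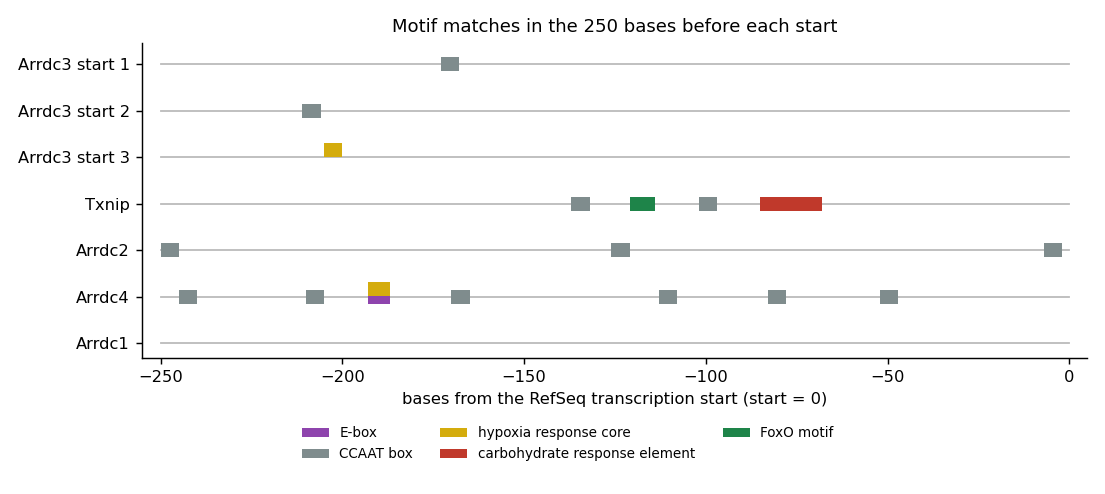
Positions of the motif matches in the 250 bases before each annotated start of the alpha-arrestin genes (x axis, bases before the start), with 3 starts for Arrdc3. The carbohydrate response element and the FoxO motif appear in the Txnip window and the E-box in that of Arrdc4, while the windows of Arrdc3 hold a CCAAT box or a hypoxia response core.

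None of the tested genes around the members was called, where 0.315% of all genes tested were, so 0 among so few is near that share. Within 100 kb of Arrdc3, 3 neighbours were tested and 0 were called, with 1 at an unadjusted edgeR p below 0.05. Of these, 9330111N05Rik alone reached 1 CPM on average (0.862 CPM in OIR-CIH against 1.34 CPM in OIR-Norm, log2 fold change -0.64). Around Arrdc2, Txnip and Arrdc1, 13, 9 and 5 neighbours were tested, and 0 were called by edgeR. Around Arrdc4, 0 of 2 neighbours passed the count filter, so none was tested. Over the 30 neighbours tested, edgeR and limma gave 6 at an unadjusted p below 0.05 and DESeq2 gave 3, and each tool called 0. Of all genes tested, 13.4% had an unadjusted edgeR p below 0.05. A gene on the opposite strand, 1700023H06Rik, overlaps Arrdc3 and was read at 0.251 to 0.728 CPM. Gm15441 overlaps Txnip in the same way, at 0.0649 to 0.220 CPM. The library kit keeps strand, but which strand was counted is not stated in the sources used here, so reads of such overlapping pairs cannot be told apart with certainty.

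To describe which genes followed the members over the libraries, 12058 genes with a mean of at least 5 CPM were centred on their mean log2(CPM + 0.5), and the root mean square difference from each member over the 6 libraries was taken. Nearest to Arrdc3 were Gm26670 (0.13), the chromatin protein gene Hmgb2 (0.14), the linker histone gene Hist1h1c (0.19), the ankyrin repeat gene Ankrd37 (0.24) and Bhlhe23 (0.24), a transcription factor of rod bipolar cells. Each of these 5 was called higher, at log2 fold changes from 0.67 to 0.97, so Arrdc3 had the largest difference of the 6. Hmgb2 stood at 114, 119 and 77.2 CPM in OIR-CIH and 53.2, 49.5 and 55.5 CPM in OIR-Norm, with OIR-CIH library 3 again the lowest of its group. Any gene that is near Arrdc3 by this measure has to differ between the groups, so their calls add nothing to it.

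Txnip was followed most closely by Ttll12 (0.02), Plekha3 (0.03), Sulf1 (0.04), Rprd1b (0.04) and Mest (0.04). Of these 5, 0 were called by edgeR, DESeq2 or limma and 1 had an unadjusted p below 0.05, and their log2 fold changes ran from -0.22 to -0.14. Txnip and its nearest genes shared a low value in OIR-CIH library 2 and a high value in OIR-Norm library 1. They were picked for following Txnip, so this likeness and their small fold changes come from the choice. No other family member was among the 5 genes nearest to Arrdc3 or to Txnip. Between members, Arrdc1 and Arrdc4 were the closest pair (0.12) and Arrdc3 and Txnip the most distant (0.68).

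**Figure D4:**
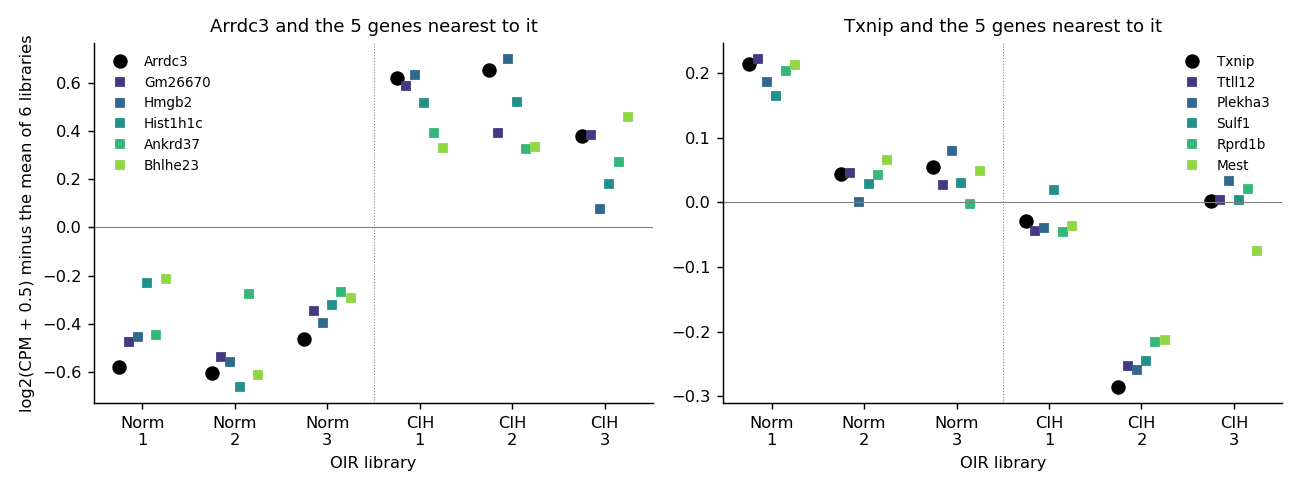
Centred log2(CPM + 0.5) (y axis, with its own scale in each panel) in the 3 OIR-Norm and 3 OIR-CIH libraries (x axis) for Arrdc3 (left, black) and Txnip (right, black) with the 5 genes nearest to each (squares). All Arrdc3 points of OIR-CIH lie above 0 and all of OIR-Norm below it, whereas Txnip spans a range of about 0.5, with its lowest point in OIR-CIH library 2.

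The partners and regulators of the family were then examined in 9 lists of 107 genes, all of which were tested. The lists were chosen with earlier results of these data known, so their shares beside those of all genes are a description only. By edgeR, 0 of 107 were called, where 0.315% of all genes were. At an unadjusted p below 0.05 there were 23 genes (21.5%), 16 higher and 7 lower in OIR-CIH, beside 13.4% of all genes tested (6.3% higher, 7.09% lower). DESeq2 and limma called 0 as well, where they called 135 and 66 of all genes tested. They gave 21 and 24 of the 107 at an unadjusted p below 0.05. The share of all genes at that limit is given here for edgeR only. The groups did not overlap for 24 (22.4%), beside 18.4% of all genes. The median log2 fold change of the 107 was 0.02, and that of all genes tested was -0.01. The 107 values ran from -2.61 to 0.49, so none was as high as that of Arrdc3.

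**Figure D5:**
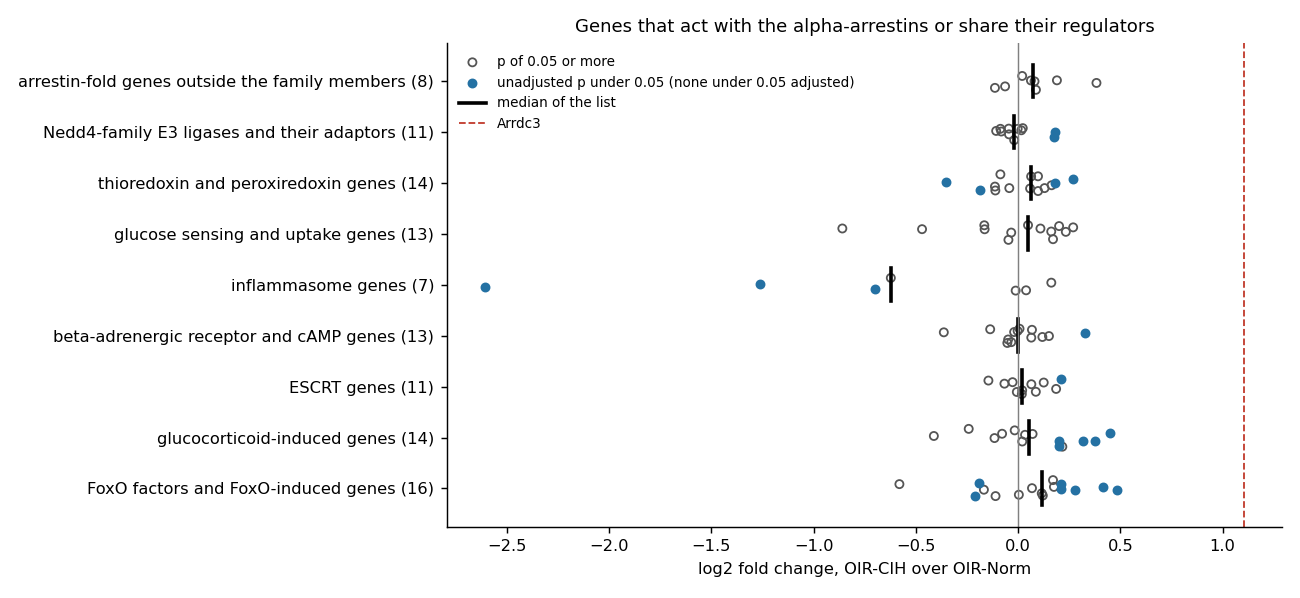
Log2 fold changes of OIR-CIH over OIR-Norm (x axis) for 107 genes in 9 lists (rows, with the number of genes), with filled points for an unadjusted edgeR p below 0.05, black bars for list medians and a dashed line for Arrdc3 at 1.11. Medians lie between -0.02 and 0.12 except for the inflammasome genes (-0.62), and no gene lies at or beyond Arrdc3 on the higher side.

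Other arrestin-fold genes differed little. Of 8 tested, 6 had positive and 2 negative log2 fold changes, with a median of 0.07 and 0 at an unadjusted p below 0.05 by edgeR. Sag, the visual arrestin of rods that ends rhodopsin signaling, stood at 4802 ± 265 CPM in OIR-CIH and 4211 ± 537 CPM in OIR-Norm (SD, n = 3), with a log2 fold change of 0.19 and an adjusted p of 0.520 (edgeR). The cone arrestin Arr3 had a log2 fold change of 0.02. The beta-arrestins Arrb1 and Arrb2, which act on many G protein-coupled receptors, had -0.11 and 0.08. Arrdc5, the remaining alpha-arrestin-like gene, was near the limit of reading (0.533 against 0.389 CPM).

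Nedd4-family ligases, the enzymes that alpha-arrestins recruit, were well read and close to equal. Nedd4 stood at 863 ± 35.3 CPM in OIR-CIH and 849 ± 21.9 CPM in OIR-Norm (SD, n = 3), a log2 fold change of 0.02. Those of Nedd4l, Itch, Wwp1 and Wwp2 were -0.02, -0.05, -0.04 and 0.02, with adjusted p from 0.814 to 0.946 (edgeR). Of the 11 genes in this list, 2 had an unadjusted p below 0.05, the ligase adaptors Ndfip1 (593 ± 18.9 against 525 ± 33.7 CPM) and Ndfip2 (75.6 against 66.6 CPM), each with a log2 fold change of 0.18 and an adjusted p of 0.365 (edgeR). Among 11 genes of the ESCRT machinery, which buds vesicles with Arrdc1 and sorts ubiquitinated cargo, 1 had an unadjusted p below 0.05, Vps37b (log2 fold change 0.21, edgeR adjusted p = 0.353). Tsg101, the ESCRT subunit that Arrdc1 binds, and Vps4a, the ATPase that releases the vesicle, had log2 fold changes of 0.19 and 0.09.

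Beta-adrenergic receptor and cAMP genes, the setting in which Arrdc3 is best known, had a median log2 fold change of 0.00 over 13 genes, with 1 at an unadjusted p below 0.05. That gene was the receptor Adrb1, at 39.5, 39.2 and 40.8 CPM in OIR-CIH and 36.2, 31.6 and 27.3 CPM in OIR-Norm. Its groups did not overlap, and the log2 fold change was 0.33 with an adjusted p of 0.233 (edgeR). Adrb3 was read at 0.202 CPM in OIR-CIH against 0.186 CPM in OIR-Norm. Creb1, a factor that acts downstream of cAMP, had -0.14.

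The redox partners of Txnip were measured by 14 thioredoxin and peroxiredoxin genes. Of these, 4 had an unadjusted p below 0.05 by edgeR, 2 higher and 2 lower, and the median log2 fold change was 0.06. Map3k5, the stress kinase held by thioredoxin, stood at 12.5, 12.2 and 14.3 CPM in OIR-CIH and 16.4, 17.0 and 16.6 CPM in OIR-Norm. Its groups did not overlap, with a log2 fold change of -0.35 and an adjusted p of 0.211 (edgeR). The peroxiredoxin Prdx5 stood at 119 ± 1.42 against 99.0 ± 12.3 CPM (0.27, adjusted p = 0.271). The thioredoxins Txn1 and Txn2 and the reductase Txnrd1 had log2 fold changes of 0.10, 0.16 and -0.11.

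Glucose sensing and uptake genes include regulators and targets of Txnip and Arrdc4, beside hexokinases and other genes of sugar use. Of 13, 0 had an unadjusted p below 0.05 by edgeR, and the median log2 fold change was 0.05. The glucose transporter Slc2a1 stood at 419 ± 31.8 CPM in OIR-CIH and 365 ± 55.3 CPM in OIR-Norm (SD, n = 3), a log2 fold change of 0.20 with an adjusted p of 0.447 (edgeR). Slc2a3, the neuronal transporter, had 0.17 and Rgs16, a glucose-induced gene, 0.23. The factors that read glucose, Mlxip (17.3 against 19.3 CPM), Mlxipl (0.602 against 0.858 CPM) and Mlx, had -0.16, -0.47 and -0.03.

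The inflammasome, which Txnip is known to bind through Nlrp3, was read at low levels. Of 7 genes, 3 had an unadjusted p below 0.05, all lower in OIR-CIH, and the median log2 fold change was -0.62. They were the adaptor Pycard (1.27 ± 0.0936 against 2.06 ± 0.289 CPM, groups apart), Casp1 (0.222 against 0.531 CPM) and the cytokine gene Il1b (0.0347 against 0.226 CPM), with adjusted p of 0.267, 0.359 and 0.329 (edgeR). Nlrp3 stood at 0.342 against 0.509 CPM. Microglia express these genes, and the summed microglia markers were at 63.6 to 74.4 CPM in OIR-CIH and 72.8 to 88.2 CPM in OIR-Norm, with all 6 lower on average, 2 of them at an unadjusted p below 0.05, and 0 called by edgeR, DESeq2 or limma. Their part in these values was not tested.

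Genes induced by glucocorticoids or by FoxO factors, both known regulators of alpha-arrestin genes, included those with the lowest p of all 107. The glucocorticoid list held 14 genes, the receptor gene Nr3c1 and genes that glucocorticoids induce. Of these 14, 5 had an unadjusted p below 0.05 by edgeR, all higher in OIR-CIH, and the list median was 0.05. Ddit4, an inhibitor of mTORC1 signaling that hypoxia also induces, stood at 279.8, 221 and 233 CPM in OIR-CIH and 189.8, 171 and 176 CPM in OIR-Norm. Its groups did not overlap, and the log2 fold change was 0.45 with an adjusted p of 0.0812 (edgeR). DESeq2 gave Ddit4 an adjusted p of 0.00084 and the replicate block 0.0389, with a fold change below the call limit under both. Klf9 stood at 345 ± 21.7 against 277 ± 16.7 CPM (0.32, edgeR adjusted p = 0.162, DESeq2 0.0163) and the phosphatase gene Dusp1 at 26.6 ± 2.18 against 20.5 ± 2.91 CPM (0.37, edgeR adjusted p = 0.228). The hormone-responsive genes Fkbp5 and Tsc22d3 had log2 fold changes of 0.03 and 0.07, and the receptor Nr3c1 had 0.02.

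Of 16 FoxO factors and FoxO-induced genes, 7 had an unadjusted p below 0.05, 5 higher and 2 lower, with a list median of 0.12. Gadd45a, a stress-induced gene of DNA repair and growth arrest, stood at 45.9, 35.6 and 33.7 CPM in OIR-CIH and 27.8, 24.8 and 29.4 CPM in OIR-Norm. OIR-CIH library 1 was the highest by a wide margin, and the log2 fold change was 0.49 with an adjusted p of 0.146 (edgeR) and 0.0117 (DESeq2). The transcriptional regulator gene Cited2 stood at 177 ± 12.3 against 146 ± 17.0 CPM (0.28, edgeR adjusted p = 0.271). Foxo1 and Foxo3 themselves had -0.11 and 0.12, with adjusted p of 0.672 and 0.566 (edgeR).

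Cell type markers were summed per library to describe the tissue in which Arrdc3 was read. None of the 67 markers matched was at 0 in all libraries, and the lens marker Lim2 was not matched. By edgeR 0 were called and 20 of the 67 had an unadjusted p below 0.05, a larger share than the 13.4% of all genes tested. DESeq2 and limma called 0, with 14 and 17 at an unadjusted p below 0.05. The 13.4% is from edgeR and is no base for those 2 tools. Sums overlapped between the groups for rods, cones, bipolar cells, ganglion cells, Müller glia, microglia, endothelial cells, pericytes, pigment epithelium, lens and red blood cells. They did not overlap for amacrine and horizontal cells (309 to 382 CPM in OIR-CIH, 287 to 303 CPM in OIR-Norm) and astrocytes (69.1 to 72.4 against 74.7 to 94.8 CPM). Such a gap is common, as the groups did not overlap for 18.4% of all single genes tested. By single gene, all log2 fold changes were above 0 for rods (6 genes) and amacrine and horizontal cells (5). All were below 0 for microglia (6), pericytes (4) and lens (5), and the other lists held both signs. Pigment epithelium markers ran from 315 to 464 CPM in OIR-CIH and 194 to 329 CPM in OIR-Norm. The part of these cell types in the difference of Arrdc3 was not tested. Lens markers were high in OIR-Norm library 2 alone (314 CPM, against 12.3 to 45.2 CPM in the others). Arrdc3 stood at 153 CPM in that library, and without that library its log2 fold change was 1.08. The part of lens tissue in these values was not tested.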

How the data were processed

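Retinal RNA (250 ng, stranded mRNA libraries) of 3 OIR-CIH and 3 OIR-Norm eyes was sequenced by the authors, who aligned reads with STAR 2.7.9a in its gene counting mode. Their paper names Ensembl 105 and the submitters' processing notes name GRCm38. The deposited table holds raw counts per gene and library, without normalization, and the counter's strand column is not stated in the sources used here. Symbols, positions and exon lengths were taken from GENCODE M21 (GRCm38).

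Genes whose counts summed to 10 or more (20021 of 32285) were scaled by TMM and tested with edgeR 4.0.16 (quasi-likelihood, group only, two-sided) in R 4.3.3, with Benjamini-Hochberg adjustment over all genes tested. A call needed adjusted p below 0.05 and absolute log2 fold change over 0.5. The script was tested on simulated data. Members and lists were chosen with earlier results of these data known. Beside the members, the text names called genes and the 2 lowest p of each list, genes set by name (1 of them is not reported here), and the 5 nearest to Arrdc3 and Txnip. Casp1, Dusp1, Gfap and 9330111N05Rik were named after their values were seen. Alternatives were RLE scaling, other count filters, DESeq2 1.42.0, limma 3.58.1 on log2(CPM + 0.5), edgeR's legacy dispersion, the replicate number as a block, no minimum fold and each library left out. The smallest exact permutation p for 3 against 3 is 0.1, so single values were not tested that way.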

Additional observations from a re-analysis of the deposited data

How the results depend on the processing

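The members were chosen on this comparison, so their values under other settings describe the processing and are no further evidence of a difference. The log2 fold change of Arrdc3 was 1.05 to 1.18 over the 13 alternatives run for it. Txnip (-0.27 to -0.12) and Arrdc2 (0.13 to 0.26) kept their sign in 13 of 13, and Arrdc1 (-0.09 to 0.06) and Arrdc4 (-0.10 to 0.08) in 11 of 13 each. The number of genes called was 63 (21 higher, 42 lower). DESeq2 called 135 (34 higher, 101 lower), all 63 among them. Without 1 library each, 29 to 97 were called, with 29 without OIR-CIH library 1 and 97 without OIR-Norm library 3, and the cause was not tested. The remaining alternatives gave 63 to 78. Of the 107 related genes, 0 were called under any setting run, with 15 to 24 at an unadjusted p below 0.05. The fold limit enters this 0, since Ddit4, Gadd45a and Klf9 had an adjusted p below 0.05 by DESeq2. DESeq2 without the fold limit was not among the settings.

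Whether libraries of the same number in the 2 groups were handled together is not stated in the labels. Their deviations correlated at 0.162, 0.143 and -0.238 over 14800 genes, and not every library correlated best with its own number. With 3 libraries a group, these correlations cannot decide it. With the replicate block, 68 genes were called, 48 of them shared with the 63, and Arrdc3 was at 1.10.

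At 223 to 567 counts per library, Txnip, Arrdc1, Arrdc2 and Arrdc4 had SEs of 0.11 to 0.12, so their 95% intervals spanned about 0.5 on the log2 scale with 3 libraries a group.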
